A study of Mus musculus with 22 samples.

Results

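Immunoglobulin heavy chain variable (V) segments were measured by mRNA sequencing of whole bone marrow of transplanted mice in 22 libraries, each taken here as 1 mouse. They were taken as every row of the deposited count table whose gene symbol starts with Ighv. This gave 185 of 47069 rows, holding 183 distinct symbols. LSK cells (marrow cells that lack lineage markers and carry Sca-1 and Kit, the fraction with blood stem and progenitor cells) from Cas9 knock-in mice received guide RNAs and were transplanted into C57BL/6 mice irradiated with 7 Gy. The guides targeted Ezh2, Bcor or Runx1. A luciferase guide (sgLuc), without a mouse target, was the control guide and completed the pair in each single-gene group. The groups were sgEzh2 + sgRunx1 (4 mice), sgBcor + sgRunx1 (3), sgRunx1 + sgLuc (3), sgEzh2 + sgLuc (3), sgBcor + sgLuc (3) and sgLuc (6). All groups shared the Cas9 knock-in, the transplant and the irradiation. Marrow was taken when a mouse showed leukaemia, or else at 6 months, and which of these applied is labelled for no mouse. Neither the age nor the sex of the mice is labelled, and the marrow may also hold host cells that outlived the irradiation.

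Each developing B cell joins a V segment, a D segment and a J segment of the heavy chain locus, and the joined V region is transcribed together with a constant region. A clone of B cells or plasma cells therefore carries the same V segment in all its cells, and a marrow with many clones carries many segments. Plasma cells hold far more immunoglobulin mRNA per cell than other B lineage cells. In mice, Runx1 is needed for early B cell development, and Ezh2 has been linked in pro-B cells to the joining of segments far from the D segments. The summed Ighv signal is thus read as B lineage RNA, and the spread of reads over segments as usage. Usage is not a count of clones, since clones may share a segment and differ in RNA per cell.

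The annotation (GENCODE M21, GRCm38) held all 185 rows, on chromosome 12 between 113572927 and 116010093, a span of 2.44 Mb. Of these, 113 are V genes with a reading frame, 70 are V pseudogenes and 2 are rows on the opposite strand that repeat the symbols Ighv5-8 and Ighv1-13. The V genes lie on the minus strand, so the D-proximal end is the low-coordinate end. The Ighv1 family, known as J558, was the largest with 93 rows at a median distance of 1.37 Mb from that end. The Ighv2 (Q52) and Ighv5 families had 11 and 22 rows at median distances of 0.144 and 0.106 Mb, and are called D-proximal here.

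The 3′ parts of 3 segment transcripts are shown, from GENCODE M21 on the minus strand of GRCm38 chromosome 12. Ighv1-53 is shown because its reads fell in all 5 comparisons with sgLuc, Ighv11-2 because it had the highest mean level over the edited libraries, and Ighv1-41 because reads of this pseudogene were in nearly every library. Capitals near the 3′ end mark the TGT codon of the conserved cysteine, found as TNNTNNTGT in the last 30 bases of the transcript strand.
Ighv1-53: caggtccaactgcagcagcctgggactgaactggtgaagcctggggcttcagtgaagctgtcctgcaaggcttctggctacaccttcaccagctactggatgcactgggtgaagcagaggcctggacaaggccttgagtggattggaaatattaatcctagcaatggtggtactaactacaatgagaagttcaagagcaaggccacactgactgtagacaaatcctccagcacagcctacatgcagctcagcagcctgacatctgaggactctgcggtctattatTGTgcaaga
Ighv11-2: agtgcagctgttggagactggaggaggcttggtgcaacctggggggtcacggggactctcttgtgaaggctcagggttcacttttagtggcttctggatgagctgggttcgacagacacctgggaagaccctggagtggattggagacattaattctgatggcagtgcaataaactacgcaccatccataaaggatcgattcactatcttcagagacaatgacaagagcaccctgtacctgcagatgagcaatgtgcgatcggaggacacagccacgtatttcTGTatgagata
Ighv1-41: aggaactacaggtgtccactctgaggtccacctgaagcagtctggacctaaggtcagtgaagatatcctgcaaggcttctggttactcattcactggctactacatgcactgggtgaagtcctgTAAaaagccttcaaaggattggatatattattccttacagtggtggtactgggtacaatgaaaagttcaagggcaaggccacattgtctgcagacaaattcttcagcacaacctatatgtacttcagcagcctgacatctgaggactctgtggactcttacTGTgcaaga
The other capitals in Ighv1-41 mark a TAA stop, the first stop met when its transcript is read in triplets from its first base. The TGT marked in Ighv1-41 does not lie in that frame. The motif was found in 150 of the 185 transcripts (81.1%), in 107 of 113 with a reading frame and 43 of 70 pseudogenes. Ighv1-53 lies at chr12:115158403-115158835, Ighv11-2 at chr12:114048241-114048812 and Ighv1-41 at chr12:114932371-114932782. Near-identical segments can split or lose reads in counting. The nearest relative of Ighv1-53 was Ighv1-62 at 96.6% identity, that of Ighv11-2 was Ighv11-1 at 98.9%, and that of Ighv1-41 was Ighv1-29 at 92.7%. Of all 185 transcripts, 49 shared at least 1 stretch of 100 bases with another. Ighv1-41 shared none (0%), and Ighv11-2 shared 17.4% of such stretches.

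Libraries held 30023722 to 57175449 counts. Library sgEzh2 + sgLuc replicate 3 stood apart: its summed neutrophil markers (S100a8, S100a9, Ltf, Elane, Mpo) were at 194 CPM (counts scaled to a common library total of 1e+06), against 28474 to 72290 CPM in the other 21 libraries, and its T cell markers summed to 2490 CPM. Summed Y-linked genes (Ddx3y, Kdm5d, Uty, Eif2s3y) were at 0 CPM in every edited library and at 136 to 218 CPM in the sgLuc libraries. Sex and editing therefore cannot be told apart in comparisons with sgLuc. Of the targeted genes, Ezh2 averaged 57.5 ± 17.1 CPM in sgEzh2 + sgRunx1 (SD, n = 4) and 66.4 ± 6.37 CPM in sgEzh2 + sgLuc (n = 3), against 98.1 ± 12.1 CPM in sgLuc (n = 6). In edited groups without its guide it averaged 71.4 ± 8.15 CPM in sgBcor + sgRunx1, 96.7 ± 1.48 CPM in sgRunx1 + sgLuc and 133 ± 37.1 CPM in sgBcor + sgLuc (n = 3 each). Runx1 and Bcor mRNA was not lower in the groups with their guides, where Runx1 ran from 89.1 to 142 CPM against 80.1 to 98.6 CPM in sgLuc, and Bcor from 56.0 to 219 CPM against 46.8 to 68.7 CPM in sgLuc. A guide need not lower the mRNA level, and this check says nothing of the protein.

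Ighv reads were scarce in all marrows with the Runx1 guide. Summed over the 185 rows, sgEzh2 + sgRunx1 had 14.7, 5.29, 29.6 and 13.4 CPM in replicates 1 to 4. The level in sgBcor + sgRunx1 was 11.3, 15.3 and 15.0 CPM, and in sgRunx1 + sgLuc 64.0, 26.6 and 27.1 CPM. The groups without that guide were far higher. The sgEzh2 + sgLuc libraries had 562, 906 and 683 CPM, and there were 364, 44.3 and 377 CPM in sgBcor + sgLuc. The sgLuc libraries ran from 380.5 to 5411 CPM with a median of 2235 CPM. The 10 libraries with the Runx1 guide lay at or under 64.0 CPM and the other 12 at or above 44.3 CPM, and sgBcor + sgLuc replicate 2 was the library that reached into the lower range. Fewer B lineage cells and less immunoglobulin RNA per cell cannot be told apart in whole marrow.

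On the log2 scale of these totals, the mean of sgEzh2 + sgRunx1 differed from that of sgLuc by -7.14, a 141.04-fold lower level, with SDs of 1.02 and 1.26 between libraries. The difference from sgLuc was -7.09 (136-fold lower) in sgBcor + sgRunx1 and -5.71 (52.2-fold lower) in sgRunx1 + sgLuc. None of these ranges overlapped that of sgLuc. The single sgEzh2 + sgLuc group differed by -1.41 (2.66-fold lower), inside the sgLuc range. The sgBcor + sgLuc group differed by -3.36 (10.3-fold lower) and its highest library lay just under the lowest sgLuc library. Without its replicate 2 the difference of sgBcor + sgLuc was -2.34. Both doubles also lay below their other singles: sgEzh2 + sgRunx1 was 53.0-fold lower than sgEzh2 + sgLuc, and sgBcor + sgRunx1 was 13.3-fold lower than sgBcor + sgLuc, without overlap. Against sgRunx1 + sgLuc, sgEzh2 + sgRunx1 was 2.70-fold lower with overlapping ranges, and sgBcor + sgRunx1 was 2.61-fold lower without overlap. These totals are sums over rows chosen for this account and carry no p.

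**Figure D1:**
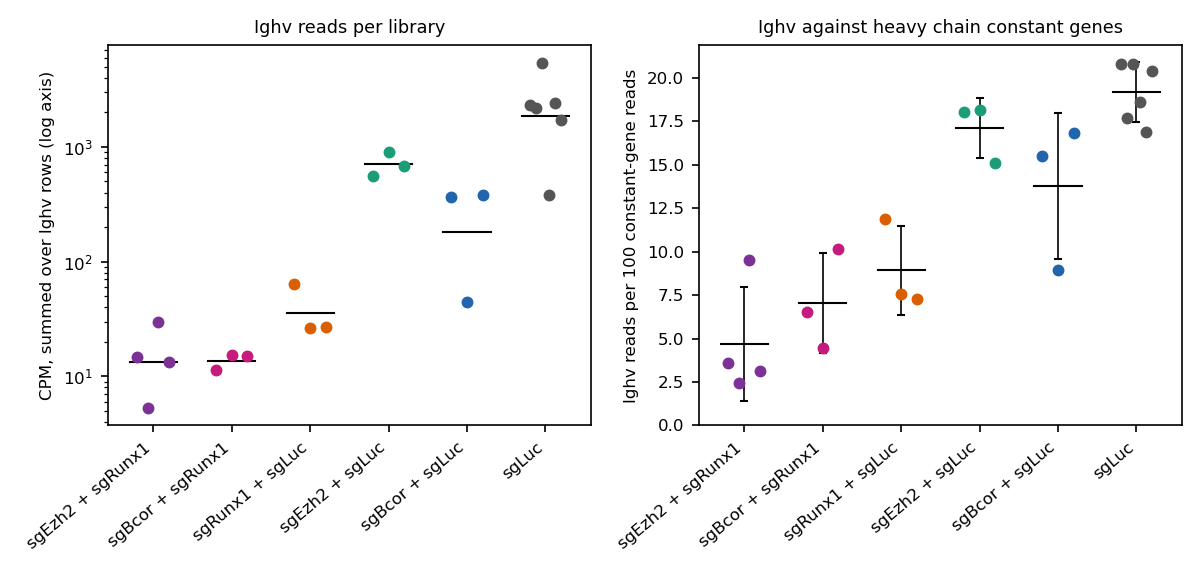
Left, summed Ighv CPM of each library on a log axis, with the geometric mean of each group as a line. Right, Ighv reads per 100 reads of the heavy chain constant genes, with mean and SD. The 10 libraries with the Runx1 guide lie at 5.29 to 64.0 CPM, the sgLuc libraries at 380.5 to 5411 CPM.

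The V reads were also few beside the constant region reads. The 8 heavy chain constant genes (Ighm, Ighd, Ighg1, Ighg2b, Ighg2c, Ighg3, Ighe, Igha) encode the shared part of each antibody class. Per 100 of their reads, sgEzh2 + sgRunx1 had 3.57, 2.44, 9.52 and 3.15 Ighv reads and sgBcor + sgRunx1 had 6.53, 4.47 and 10.2. The value was 11.9, 7.56 and 7.30 in sgRunx1 + sgLuc. All 10 lay below the 16.9 to 20.8 of the sgLuc libraries. Values were 18.0, 18.2 and 15.1 in sgEzh2 + sgLuc and 15.5, 8.97 and 16.8 in sgBcor + sgLuc. The library of low total in that last group, replicate 2, thus also had the fewest V reads per constant read among the libraries without the Runx1 guide.

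Tested 1 by 1 with edgeR's quasi-likelihood test, Ighv segments fell together in the groups with the Runx1 guide. Of the 185 rows, 101 passed the count filter. A row can pass through sgLuc alone, and a row with reads mainly there then has to differ, so the counts describe the members and are no support of their own. Calls were made at an FDR (p adjusted by Benjamini-Hochberg over all 17659 genes tested) under 0.05. In sgEzh2 + sgRunx1 against sgLuc, 83 of the 101 were lower and 0 higher, where 6.09% of all genes were lower and 4.03% higher. In sgBcor + sgRunx1 against sgLuc, 76 were lower and 0 higher (9.69% of all genes lower, 4.73% higher). In sgRunx1 + sgLuc against sgLuc, 56 were lower and 0 higher (5.36% of all genes lower, 2.76% higher). When replicate 1, 2 or 3 of the sgRunx1 + sgLuc group was left out, 36, 29 and 32 were lower. No segment was called higher in these comparisons, by edgeR at an unadjusted p under 0.05 or by DESeq2. The median log2 fold change of the 101 was -8.79, -8.53 and -6.46 in these 3 comparisons, against 0.005, -0.022 and -0.035 over all genes. With segments that had no read in the edited group set at their bound against 3 counts over that group, the medians were -7.67, -7.05 and -5.58.

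The groups without the Runx1 guide showed few calls against sgLuc. In sgEzh2 + sgLuc, 3 segments were lower and 0 higher (1.95% of all genes lower, 6.29% higher), with 20 lower at an unadjusted p under 0.05 and 10 lower by DESeq2. The 3 were Ighv1-53, Ighv1-80 and Ighv1-62-2, and each call ended in at least 1 fit without a single library. The count was 0 without sgEzh2 + sgLuc replicate 1 or 3, 1 without its replicate 2 or sgLuc replicate 1, and 7 without sgLuc replicate 4. In sgBcor + sgLuc, 9 segments were lower and 0 higher (1.19% of all genes lower, 1.97% higher), with 51 lower at an unadjusted p under 0.05 and 29 by DESeq2. This count was 0 without sgBcor + sgLuc replicate 3, 3 without its replicate 2, 5 without its replicate 1 or sgLuc replicate 5, and 4 without sgLuc replicate 1. The median log2 fold change of the 101 was -1.36 in the sgEzh2 + sgLuc comparison (0.056 over all genes) and -2.71 in the sgBcor + sgLuc comparison (0.002 over all genes).

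Comparisons that do not use sgLuc gave the same direction for adding the Runx1 guide. In sgEzh2 + sgRunx1 against sgEzh2 + sgLuc, 68 of 101 segments were lower and 0 higher (8.64% of all genes lower, 3.98% higher). In sgBcor + sgRunx1 against sgBcor + sgLuc, 36 were lower and 0 higher (8.77% of all genes lower, 3.47% higher). This second count was 9, 8 and 8 without sgBcor + sgRunx1 replicate 1, 2 and 3, 9 without sgBcor + sgLuc replicate 1 and 19 without its replicate 3. Adding the Ezh2 or the Bcor guide to the Runx1 guide gave no call by edgeR. In sgEzh2 + sgRunx1 against sgRunx1 + sgLuc the count was 0 (0.051% of all genes lower, 0.136% higher), with 19 lower and 1 higher at an unadjusted p under 0.05 and 11 lower by DESeq2. In sgBcor + sgRunx1 against sgRunx1 + sgLuc it was 0 (0.821% of all genes lower, 0.419% higher), with 13 lower and 1 higher at an unadjusted p under 0.05, and 13 lower and 1 higher by DESeq2. Between the doubles, sgEzh2 + sgRunx1 against sgBcor + sgRunx1 gave 0 calls (2.22% of all genes lower, 4.83% higher), with 2 lower and 6 higher at an unadjusted p under 0.05, and 3 lower and 5 higher by DESeq2. At 223 to 2539 Ighv reads a library, most segments had few reads in these groups, so a difference may not have been detectable.

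Ighv1-53, a J558 segment 1.585 Mb from the D-proximal end, was among the called segments in every comparison with sgLuc. It had 0.172, 0.0948, 0.129 and 0.316 CPM in sgEzh2 + sgRunx1, 0.274, 0.454 and 0.753 CPM in sgBcor + sgRunx1, and 1.06, 0.288 and 0.249 CPM in sgRunx1 + sgLuc. It had 12.9, 10.3 and 43.6 CPM in sgEzh2 + sgLuc and 8.47, 1.55 and 7.72 CPM in sgBcor + sgLuc. In sgLuc it ran from 9.15 to 470 CPM with a mean of 198 ± 168 CPM (SD, n = 6). Only sgEzh2 + sgLuc overlapped sgLuc. Its log2 fold change by edgeR was -10.09 ± 1.14 (SE, FDR 2.7e-05) in sgEzh2 + sgRunx1, -8.51 ± 1.19 (FDR 0.00022) in sgBcor + sgRunx1 and -8.51 ± 1.19 (FDR 0.00051) in sgRunx1 + sgLuc. It was -3.28 ± 0.88 (FDR 0.029) in sgEzh2 + sgLuc and -5.13 ± 0.98 (FDR 0.0076) in sgBcor + sgLuc. The call in sgBcor + sgLuc was lost without its replicate 3 (FDR 0.056). The call in sgEzh2 + sgLuc was lost without its replicate 1, 2 or 3 (FDR 0.061, 0.066 and 0.11).

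Ighv1-80, a J558 segment at chr12:115912344-115912776, held 30480 reads over the sgLuc libraries. In sgEzh2 + sgRunx1 it had 1 read over 4 libraries and in sgBcor + sgRunx1 1 read over 3, against 8.45 to 311 CPM in sgLuc. The ratio of the summed levels was 23834 (95% counting interval 4277 to 941439) for sgEzh2 + sgRunx1 and 17343 (3112 to 685033) for sgBcor + sgRunx1, lower in the edited group. Its FDR by edgeR was 7.1e-05 and 0.00026 there. In sgEzh2 + sgLuc, Ighv1-80 had 11.6 ± 3.68 CPM (SD, n = 3) and a log2 fold change of -3.69 ± 1.04 (SE, FDR 0.037), which was lost without any of its 3 replicates or sgLuc replicate 1, 3 or 5 (FDR 0.053 to 0.25). In sgBcor + sgLuc it had 1.69 ± 1.54 CPM and a log2 fold change of -6.46 ± 1.23 (FDR 0.0076), a call that was lost without replicate 3 (FDR 0.066). Ighv1-61, at chr12:115359140-115359572, had 1 read in sgEzh2 + sgRunx1, 2 in sgBcor + sgRunx1, 38 in sgRunx1 + sgLuc and 28 in sgBcor + sgLuc, against 1525 in sgLuc. It fell in all 4 (FDR 5.0e-05, 0.00027, 0.0055 and 0.0072 by edgeR), the last call being lost without sgBcor + sgLuc replicate 3 (FDR 0.056). It shares 29.4% of its 100-base stretches with other segments, Ighv1-52 being 98.6% identical.

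Several segments had no read left in a group. In sgRunx1 + sgLuc, Ighv1-75 (chr12:115833950-115834418) and Ighv14-4 (chr12:114176438-114176867) had 0 reads, against 2643 and 7023 in sgLuc. Set against 3 counts over the group, they were at least 508-fold and at least 1349.6-fold lower (FDR 0.00094 and 0.0011 by edgeR). Ighv1-62-2 averaged 0.546 ± 0.442 CPM in sgEzh2 + sgLuc (SD, n = 3), with a log2 fold change of -4.93 ± 1.35 against sgLuc (SE, FDR 0.046 by edgeR), a call lost in 7 of the fits without 1 library (FDR up to 0.23). In sgBcor + sgRunx1 against sgBcor + sgLuc, the lowest FDRs were those of Ighv5-4 (1 read against 469, FDR 0.0024), Ighv1-75 (1 against 301, FDR 0.0062) and Ighv5-2 (0 against 134, FDR 0.0074), all by edgeR. Ighv5-4 and Ighv5-2 lie 0.025 and 0.006 Mb from the D-proximal end. In sgEzh2 + sgRunx1 against sgEzh2 + sgLuc they were those of Ighv1-61 (1 read against 400, FDR 0.00025), Ighv1-81 (19 against 5650, FDR 0.00043) and Ighv1-53 (32 against 3055, FDR 0.0005).

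Which segment led differed from mouse to mouse. The 22 libraries had 19 different top segments. In sgLuc these were Ighv1-80 (13.5% of Ighv reads), Ighv1-15 (24.4%), Ighv1-50 (25.5%), Ighv14-4 (21.8%), Ighv1-9 (28.4%) and Ighv1-15 again (11.1%) in replicates 1 to 6. Replicate 2 had a further segment, Ighv1-53, at 21.6%. In sgEzh2 + sgLuc the top segments were Ighv5-9 (6.97%), Ighv1-52 (19.0%) and Ighv2-3 (17.5%), and in sgBcor + sgLuc Ighv11-2 (7.55%), Ighv5-16 (11.1%) and Ighv1-15 (20.96%). The exact 95% binomial intervals of these shares were narrow at 2022 to 173994 Ighv reads a library, the widest being 9.79 to 12.6% in sgBcor + sgLuc replicate 2. Such intervals cover counting error only, since reads of the same cell or clone are not independent.

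In groups with the Runx1 guide the top shares rested on few reads. They were Ighv1-76 at 18.6% (95% interval 15.3 to 22.2%), Ighv2-2 at 38.1% (31.7 to 44.8%), Ighv7-3 at 53.4% (50.5 to 56.4%) and Ighv1-82 at 11.6% (9.36 to 14.2%) in sgEzh2 + sgRunx1. Ighv1-41 tied with Ighv1-82 at 84 reads. In sgBcor + sgRunx1 they were Ighv1-50 at 19.4% (16.03 to 23.2%), Ighv1-41 at 21.6% (18.4 to 25.1%) and Ighv1-64 at 19.1% (16.05 to 22.5%). In sgRunx1 + sgLuc they were Ighv14-1 at 26.5% (24.8 to 28.3%), Ighv1-69 at 9.10% (7.53 to 10.9%) and Ighv9-3 at 33.3% (30.5 to 36.2%). The library with the largest share, sgEzh2 + sgRunx1 replicate 3, held 612 reads of Ighv7-3 among 1145.

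**Figure D2:**
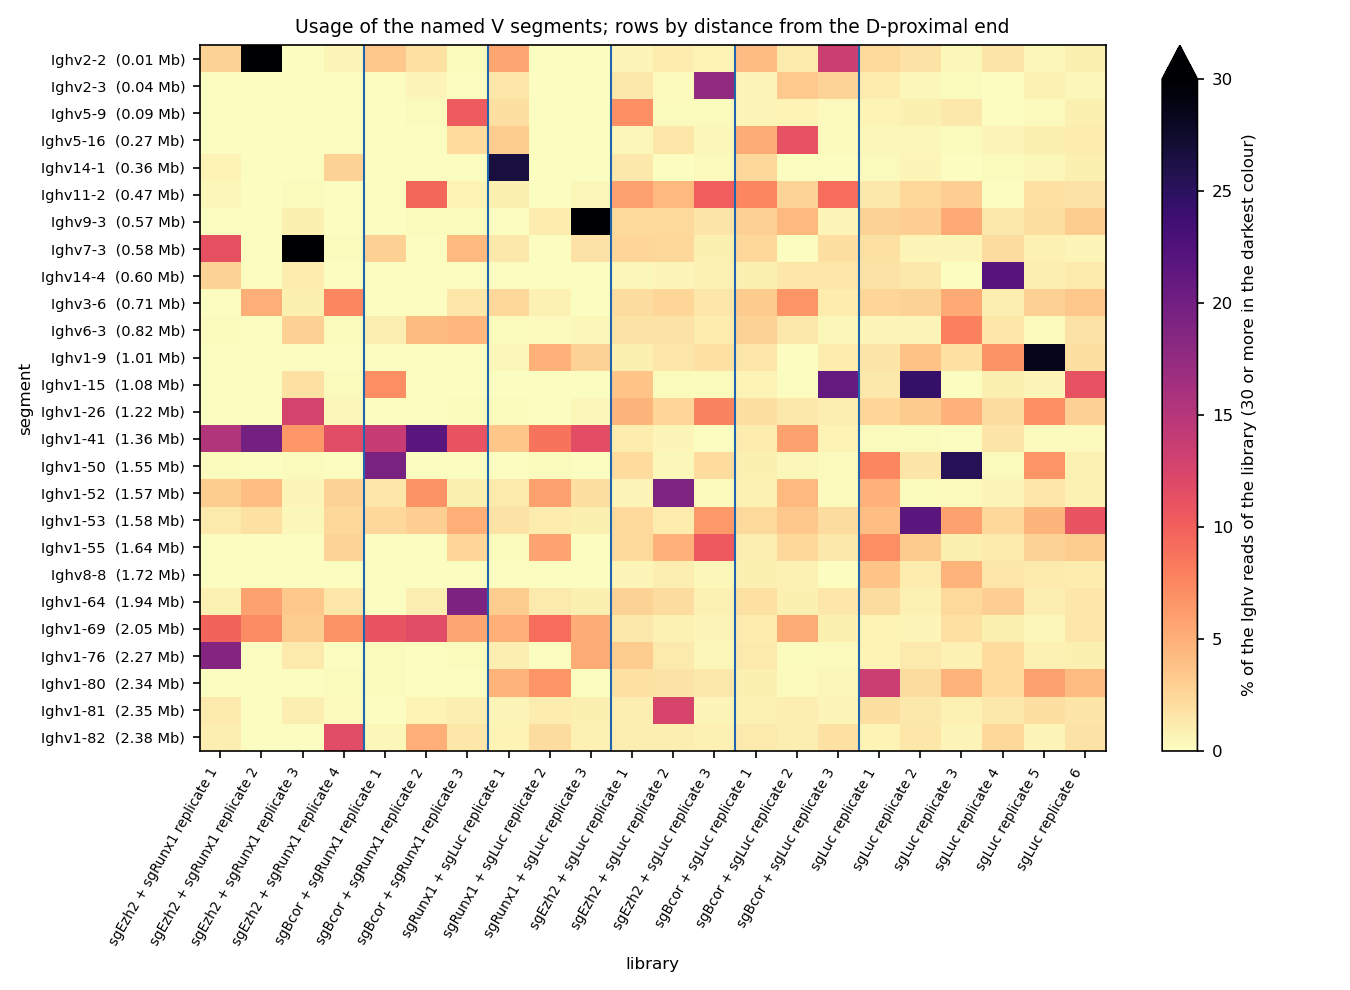
Share of each library's Ighv reads held by the named segments, with rows ordered from the D-proximal end (top) and libraries by group along the x axis. The darkest cells are single libraries, such as Ighv7-3 at 53.4% in sgEzh2 + sgRunx1 replicate 3 and Ighv1-9 at 28.4% in sgLuc replicate 5, while Ighv1-41 is dark across the groups with the Runx1 guide.

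By level, the segments with the highest means in sgLuc after Ighv1-50 were Ighv1-53 (198 CPM), Ighv1-9 (161 CPM), Ighv1-80 (139 CPM) and Ighv1-15 (129 CPM). Over the 16 edited libraries they were Ighv11-2 (13.0 CPM), Ighv1-52 (11.8 CPM), Ighv2-3 (9.003 CPM) and Ighv1-55 (8.79 CPM). These means mix groups of very different Ighv totals, and single libraries carried some of them: Ighv2-3 was at 119 CPM in sgEzh2 + sgLuc replicate 3, the library rich in T cell markers, and at most 9.997 CPM in any other edited library. Ighv1-52 was at 172 CPM in sgEzh2 + sgLuc replicate 2 and at most 3.19 CPM in any other edited library. By group, the top segment held 30.4 ± 19.0% of Ighv reads in sgEzh2 + sgRunx1 (SD, n = 4), 20.05 ± 1.34% in sgBcor + sgRunx1, 23.0 ± 12.5% in sgRunx1 + sgLuc, 14.5 ± 6.53% in sgEzh2 + sgLuc and 13.2 ± 6.94% in sgBcor + sgLuc (n = 3 each), against 20.8 ± 6.96% in sgLuc (n = 6). Every edited group overlapped sgLuc, and the differences were within the spread between mice. Mice of a group shared a limited part of their usage. The overlap of segment shares between a pair of sgLuc mice was 35.4 to 67.3% with a median of 45.3% over 15 pairs, and 41.3 to 50.7% between sgEzh2 + sgLuc mice.

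Reads were spread over 107 to 118 segments in sgLuc, and over fewer where the totals were low. The number of rows with at least 1 read was 39, 14, 37 and 38 in sgEzh2 + sgRunx1, 34, 34 and 40 in sgBcor + sgRunx1, and 63, 57 and 44 in sgRunx1 + sgLuc. It was 115, 120 and 108 in sgEzh2 + sgLuc and 116, 83 and 103 in sgBcor + sgLuc. The number grows with depth, so the number to be found in a draw of 223 Ighv reads, the lowest total of a library, was also computed. Then 31.9, 14.0, 23.2 and 29.6 segments remained in sgEzh2 + sgRunx1, 28.9, 26.2 and 30.8 in sgBcor + sgRunx1, and 38.8, 40.6 and 31.0 in sgRunx1 + sgLuc, against 39.9 to 55.8 in sgLuc. Both doubles still lay below all sgLuc libraries, and sgRunx1 + sgLuc touched their range. In sgEzh2 + sgLuc it was 61.1, 50.9 and 49.5 (mean 53.8 ± 6.31) and in sgBcor + sgLuc 63.8, 52.6 and 51.7 (56.0 ± 6.76), against a mean of 48.7 ± 5.92 in sgLuc, with overlap. Over all libraries, 45 of the 185 rows had no read, of which 39 are pseudogenes, and 6 had reads in every library.

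Evenness (Shannon entropy over its maximum for the segments with reads, 1 when all are equal) overlapped between sgLuc and each edited group but sgBcor + sgRunx1. It was 0.721 ± 0.129 in sgEzh2 + sgRunx1 (n = 4), 0.793 ± 0.0081 in sgBcor + sgRunx1, 0.760 ± 0.0709 in sgRunx1 + sgLuc, 0.759 ± 0.0727 in sgEzh2 + sgLuc and 0.800 ± 0.063 in sgBcor + sgLuc (SD, n = 3 each), against 0.714 ± 0.0587 in sgLuc (n = 6). The sgBcor + sgRunx1 libraries, at 0.784 to 0.798, lay above the sgLuc range of 0.649 to 0.772, but with fewer segments to divide by. The inverse Simpson number, the count of equally used segments that would give the same chance of drawing a segment again, gave another order. It was 11.3, 4.91, 3.21 and 15.4 in sgEzh2 + sgRunx1, 11.4, 10.96 and 12.8 in sgBcor + sgRunx1, and 10.4, 22.2 and 7.00 in sgRunx1 + sgLuc. It was 39.5, 15.2 and 13.9 in sgEzh2 + sgLuc and 37.5, 25.25 and 12.7 in sgBcor + sgLuc. In sgLuc it ran from 8.64 to 21.7 with a median of 13.1, and every edited group overlapped this range.

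**Figure D3:**
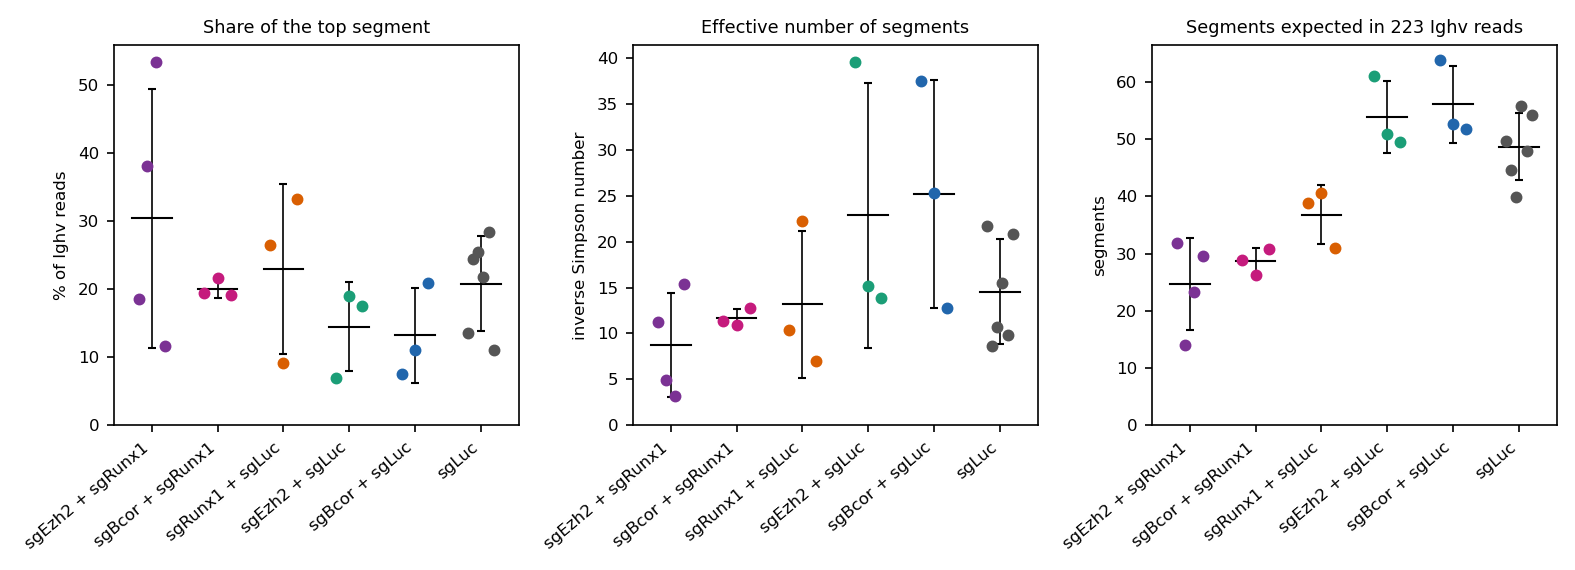
Share of the top segment, inverse Simpson number and segments expected in 223 Ighv reads for each library, with the mean and SD of each group. Top share and inverse Simpson number overlap between every edited group and sgLuc, while the expected number of segments is 14.0 to 31.9 in both doubles and 39.9 to 55.8 in sgLuc.

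Usage along the locus differed most in sgBcor + sgLuc. The D-proximal families Ighv2 and Ighv5 held 28.2, 24.7 and 23.2% of its Ighv reads, against 6.09 to 9.48% in the 6 sgLuc libraries, with no overlap. Single segments made up much of this in replicates 2 and 3, with Ighv5-16 at 11.1% in replicate 2 and Ighv2-2 at 13.5% in replicate 3. In replicate 1 these segments held 5.22 and 4.21%. The D-proximal families held 17.9, 6.45 and 24.9% in sgEzh2 + sgLuc, of which replicates 1 and 3 lay above the sgLuc range. In replicate 3 of that group the single segment Ighv2-3, at 17.5%, made up most of the share, and replicate 3 is also the library rich in T cell markers. Without the top segment of each library, the D-proximal mean of sgEzh2 + sgLuc was 9.59% against 10.2% in sgLuc. Groups with the Runx1 guide ranged widely, with 2.94, 38.1, 0.00 and 6.49% in sgEzh2 + sgRunx1, 4.86, 2.47 and 18.6% in sgBcor + sgRunx1, and 14.7, 3.26 and 3.96% in sgRunx1 + sgLuc. The value of 38.1% was the single segment Ighv2-2 in a library of 223 Ighv reads.

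The J558 family held 67.5, 48.0, 35.3 and 68.7% of Ighv reads in sgEzh2 + sgRunx1, 83.8, 72.2 and 61.9% in sgBcor + sgRunx1, and 44.55, 70.9 and 52.7% in sgRunx1 + sgLuc. It held 46.9, 69.8 and 50.4% in sgEzh2 + sgLuc and 37.0, 45.1 and 53.7% in sgBcor + sgLuc, against 46.0 to 76.8% in sgLuc with a median of 65.4%. Every group overlapped sgLuc. In sgBcor + sgLuc the J558 family nevertheless made up 52.4% of the segments with reads, against 52.55% in sgLuc, so its lower mean share (45.25 ± 8.35% against 64.7 ± 12.2%) lay in the reads per segment and not in the number of segments. The distance at which the median Ighv read fell was 0.604, 1.22 and 0.966 Mb in sgBcor + sgLuc, 0.951, 1.57 and 1.01 Mb in sgEzh2 + sgLuc and 0.914 to 1.55 Mb in sgLuc.

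**Figure D4:**
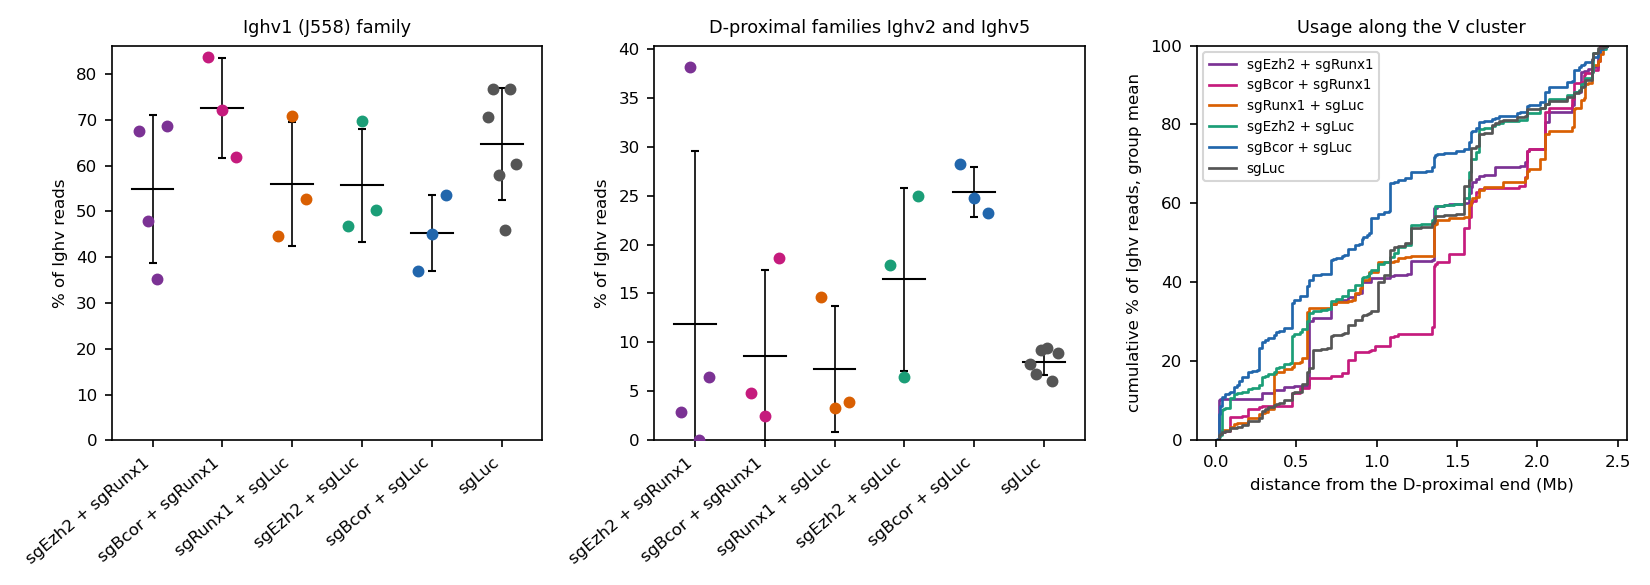
Share of Ighv reads in the J558 family and in the D-proximal families per library, with mean and SD, and the mean cumulative share of Ighv reads with distance from the D-proximal end of the V cluster. The 3 sgBcor + sgLuc libraries lie at 23.2 to 28.2% D-proximal reads and the 6 sgLuc libraries at 6.09 to 9.48%.

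Ighv11-2 was a further segment with a higher share in sgEzh2 + sgLuc. This segment, 0.475 Mb from the D-proximal end, is known in mice from antibodies of B-1 cells. It held 5.76, 4.44 and 10.2% of Ighv reads in sgEzh2 + sgLuc and 7.55, 2.62 and 9.10% in sgBcor + sgLuc, against 0.00 to 3.03% in sgLuc. In sgRunx1 + sgLuc it held 0.906, 0.00 and 0.460%, inside the sgLuc range. The sgEzh2 + sgLuc libraries did not overlap sgLuc, and 2 of 3 sgBcor + sgLuc libraries lay above it. As a level it did not stand out, with 32.4, 40.3 and 69.5 CPM in sgEzh2 + sgLuc and 27.5, 1.16 and 34.3 CPM in sgBcor + sgLuc, against 0.00 to 164 CPM in sgLuc. With the Runx1 guide it had 58 reads in sgBcor + sgRunx1 replicate 2, a share of 9.56%, which also lay above the sgLuc range. It had at most 23 reads in any of the other 9 libraries with that guide.

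Ighv1-41, the pseudogene shown above, varied less between groups than the Ighv total. It had 2.24, 1.04, 1.92 and 1.56 CPM in sgEzh2 + sgRunx1, 1.55, 3.31 and 1.63 CPM in sgBcor + sgRunx1, and 2.32, 2.33 and 3.11 CPM in sgRunx1 + sgLuc. It had 6.42, 4.77 and 0.00 CPM in sgEzh2 + sgLuc, 4.08, 2.63 and 2.58 CPM in sgBcor + sgLuc, and 3.55 to 5.99 CPM in sgLuc. All 10 libraries with the Runx1 guide lay below all 6 sgLuc libraries, the direction of the Ighv total. Over 21 libraries its level spanned 6.16-fold, where the Ighv total spanned 1024-fold over 22. None of the 5 comparisons with sgLuc called it by edgeR. Its log2 fold change was -1.52 ± 0.71 (SE, FDR 0.20 by edgeR) in sgEzh2 + sgRunx1, -0.97 ± 0.77 (FDR 0.45) in sgBcor + sgRunx1 and -0.82 ± 0.77 (FDR 0.59) in sgRunx1 + sgLuc. It was -0.35 ± 0.75 (FDR 0.79) in sgEzh2 + sgLuc and -0.63 ± 0.76 (FDR 0.72) in sgBcor + sgLuc. It was among the first 3 segments in 9 libraries, all with the Runx1 guide. It held 3.62 to 21.6% of Ighv reads over the 10 libraries with that guide and 0.00 to 5.93% over the 12 without it. The highest of those 12 was sgBcor + sgLuc replicate 2, so the ranges overlapped. Pseudogenes as a whole held 7.60 to 28.2% of Ighv reads in the 10 libraries with the Runx1 guide, and 0.12 to 2.26% in sgLuc. Over all 12 libraries without that guide they held 0.12 to 8.65%, so these ranges overlapped too. The library with no read of Ighv1-41, sgEzh2 + sgLuc replicate 3, held 31657 Ighv reads, and 3 reads would have been 0.0647 CPM there. Its level of the neutrophil gene S100a8 was 72.3 CPM, against 7210 to 23116 CPM in the other libraries. That library also held 2490 CPM of summed T cell markers. Of the B cell progenitor genes, Vpreb1, Igll1, Rag1 and Dntt were at 0.194, 0.129, 0.0216 and 1.88 CPM there and Vpreb2 at 0, but Il7r and Ebf1 at 302.7 and 36.8 CPM. Whether cells outside the B lineage carry the Ighv1-41 transcript was not tested. Without Ighv1-41 the totals were 4.24 to 27.7 CPM in sgEzh2 + sgRunx1, 9.72 to 13.3 CPM in sgBcor + sgRunx1 and 23.9 to 61.7 CPM in sgRunx1 + sgLuc.

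**Figure D5:**
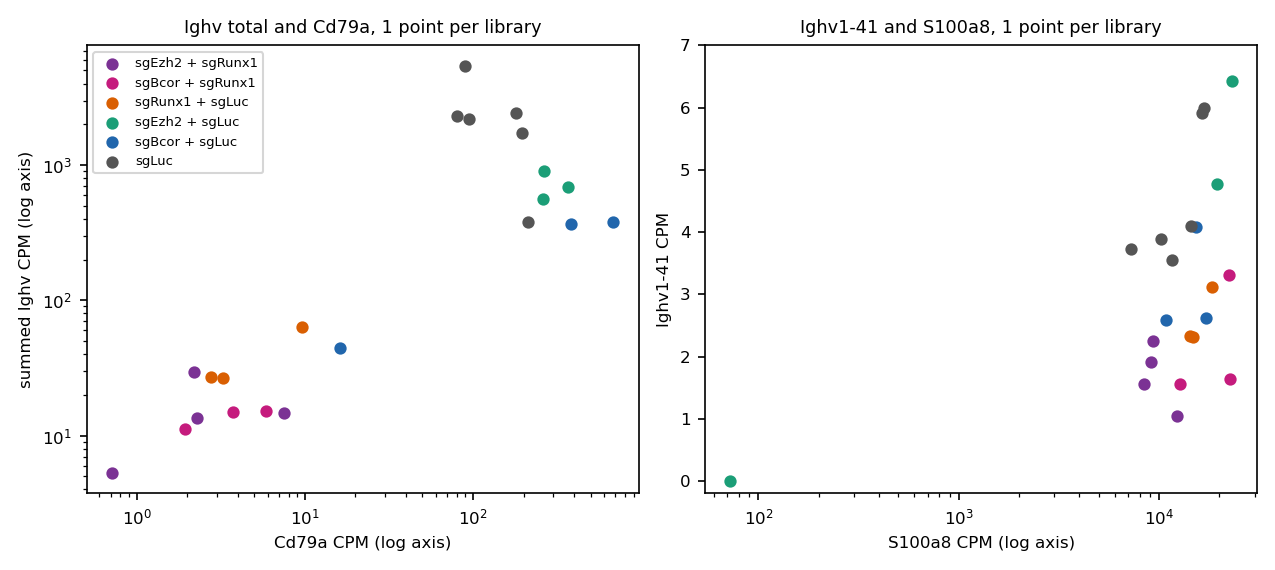
Left, summed Ighv CPM against Cd79a CPM, both on log axes. Right, Ighv1-41 CPM against S100a8 CPM on a log axis. Each point is a library. Apart from sgBcor + sgLuc replicate 2, the sgEzh2 + sgLuc and sgBcor + sgLuc libraries lie at 261 CPM of Cd79a or more, above the sgLuc libraries, and the library without Ighv1-41 reads is the one with 72.3 CPM of S100a8.

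Other B lineage genes give the setting of these reads. Cd79a, a signalling subunit of the B cell receptor made from the pro-B stage on, was at 0.711 to 7.56 CPM in sgEzh2 + sgRunx1, 1.94 to 5.90 CPM in sgBcor + sgRunx1 and 2.77 to 9.65 CPM in sgRunx1 + sgLuc. It was at 261 to 369 CPM in sgEzh2 + sgLuc and 383, 16.3 and 684 CPM in sgBcor + sgLuc, against 80.4 to 212 CPM in sgLuc. Its order thus differed from that of the Ighv totals. Per Cd79a read, sgEzh2 + sgLuc had 2.15, 3.44 and 1.85 Ighv reads and sgBcor + sgLuc 0.951, 2.72 and 0.552, against 1.79 to 60.5 in sgLuc with a median of 18.3. The 10 libraries with the Runx1 guide had 1.94 to 13.5 Ighv reads per Cd79a read, inside the sgLuc range and below its median. The lowest sgLuc value was that of replicate 4, the library with the lowest Ighv total of that group.

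Markers of B cell stages moved beside these ratios. The summed plasma cell markers (Jchain, Sdc1, Mzb1, Tnfrsf17, Xbp1, Prdm1, Irf4) were at 276 to 345 CPM in sgEzh2 + sgRunx1, 196 to 276 CPM in sgBcor + sgRunx1 and 200.4 to 237 CPM in sgRunx1 + sgLuc. They were at 654 to 974 CPM in sgEzh2 + sgLuc and 228 to 587 CPM in sgBcor + sgLuc, against 555 to 4218 CPM in sgLuc. Most of this sum with the Runx1 guide was Xbp1, a stress response factor that other cells also make, at 179 to 326 CPM over those 10 libraries, and it passed the test in none of the 3 groups (log2 0.08, -0.10 and -0.42). Jchain, which links antibody units, fell to 8.26 ± 7.76 CPM in sgEzh2 + sgRunx1 (SD, n = 4), 3.15 ± 2.50 CPM in sgBcor + sgRunx1 and 13.8 ± 8.85 CPM in sgRunx1 + sgLuc (n = 3 each), against 1788 ± 1116 CPM in sgLuc (n = 6). Of the 7 plasma cell markers, 5, 6 and 5 fell in these groups by edgeR (6.09, 9.69 and 5.36% of all genes lower). In sgEzh2 + sgLuc 1 fell by edgeR, Xbp1 (log2 -0.696, FDR 0.023), where 1.95% of all genes were lower. In sgBcor + sgLuc 3 fell by edgeR (1.19% of all genes lower). They were Tnfrsf17 (log2 -4.73, FDR 0.022), Jchain (log2 -3.91, FDR 0.028) and Xbp1 (log2 -0.72, FDR 0.034). Jchain was at 128 ± 97.4 CPM there (SD, n = 3). The summed B cell progenitor markers (Vpreb1, Vpreb2, Igll1, Rag1, Dntt, Il7r, Ebf1) were at 3.08 to 39.8 CPM over the libraries with the Runx1 guide. They were at 282 to 391 CPM in sgEzh2 + sgLuc and 24.8 to 1956 CPM in sgBcor + sgLuc, against 28.3 to 202 CPM in sgLuc. Of these 7, 2 fell in sgEzh2 + sgRunx1, 1 in sgBcor + sgRunx1 and 2 in sgRunx1 + sgLuc by edgeR (6.09, 9.69 and 5.36% of all genes lower). With the Runx1 guide, 2.27 to 24.3 CPM of the progenitor sum were Dntt, which passed the test in none of the 3 groups (log2 -0.99, -0.92 and -1.85). In sgEzh2 + sgLuc replicate 3, the library rich in T cell markers, 302.7 CPM of this sum were Il7r, which T cells also make, and 36.8 CPM were Ebf1. The progenitor genes Vpreb1, Igll1, Rag1 and Dntt were there at 0.194, 0.129, 0.0216 and 1.88 CPM, and Vpreb2 at 0. Cr2, a complement receptor of mature B cells, was at 0 in every sgBcor + sgRunx1 library, and no plasma cell or progenitor marker was at 0 throughout a group. The part of each cell stage in the Ighv values was not tested.

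The immunoglobulin constant regions, which also include the light chain genes Igkc and Iglc1 to Iglc3, moved with the V segments. Of 12 genes 11 were tested, and 11 fell in sgEzh2 + sgRunx1, 11 in sgBcor + sgRunx1, 10 in sgRunx1 + sgLuc, 0 in sgEzh2 + sgLuc and 5 in sgBcor + sgLuc, all against sgLuc, with none called higher. The shares of all genes lower were 6.09, 9.69, 5.36, 1.95 and 1.19% in these comparisons. Iglc2 had the lowest p with the Runx1 guide: it averaged 0.967 ± 0.556 CPM in sgEzh2 + sgRunx1 (SD, n = 4) and 0.254 ± 0.179 CPM in sgBcor + sgRunx1 (n = 3), against 93.3 ± 52.3 CPM in sgLuc (n = 6). Its log2 fold changes were -6.69 ± 0.67 (FDR 8.0e-06), -8.40 ± 0.86 (FDR 1.7e-05) and, in sgRunx1 + sgLuc, -5.63 ± 0.72 (FDR 0.00025), by edgeR. Iglc1 came next, at log2 -7.74, -7.61 and -6.06 in these comparisons. In sgBcor + sgLuc, Ighg3, the constant region of IgG3, fell to 0.975 ± 0.426 CPM against 164 ± 120 CPM in sgLuc (log2 fold change -7.49 ± 1.67, FDR 0.024), and Ighm, that of IgM, to 1255 ± 739 CPM against 10021 ± 7536 CPM (-3.09 ± 0.71, FDR 0.024). In sgEzh2 + sgLuc the lowest p values were those of Ighm (log2 -2.01 ± 0.67, FDR 0.066) and Igkc (-1.90 ± 0.88, FDR 0.17).

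Of the machinery that joins V, D and J segments, few genes passed the test against sgLuc. Of 13 genes, all tested, 0 were called lower by edgeR in any comparison with sgLuc. In sgEzh2 + sgLuc 2 rose (6.29% of all genes higher), Xrcc5 (Ku80, log2 1.86 ± 0.42, FDR 0.012) and Prkdc (the DNA-dependent protein kinase, 0.59 ± 0.17, FDR 0.040). Xrcc5 stood at 8.94, 8.45 and 48.3 CPM in the 3 sgEzh2 + sgLuc libraries, the highest being the library rich in T cell markers. In sgBcor + sgLuc 2 rose (1.97% of all genes higher), Hmgb1 (a DNA-bending cofactor, 0.58 ± 0.13, FDR 0.019) and Xrcc6 (Ku70, 0.88 ± 0.22, FDR 0.035). Both varied widely between those libraries, at 299 ± 83.6 and 86.3 ± 56.0 CPM (SD, n = 3). In sgLuc they were at 188 ± 15.5 and 43.5 ± 5.83 CPM (n = 6). In sgBcor + sgRunx1 1 rose (4.73% of all genes higher), Xrcc4 (a ligase partner, 0.45 ± 0.15, FDR 0.047), and Nhej1 had log2 0.65 ± 0.25 (FDR 0.094). In sgEzh2 + sgRunx1 the lowest p values were those of Rag1, a subunit of the recombinase, at log2 -4.88 ± 1.77 (FDR 0.092) and Lig4 at -0.98 ± 0.36 (FDR 0.097). In sgRunx1 + sgLuc they were those of Rag2, the other subunit, at -3.01 ± 1.39 (FDR 0.20) and Xrcc6 at -0.49 ± 0.23 (FDR 0.22). Rag1 averaged 0.452 ± 0.511 CPM in sgEzh2 + sgRunx1 (SD, n = 4) and 0.333 ± 0.230 CPM in sgBcor + sgRunx1 (n = 3, log2 -5.13 ± 2.08, FDR 0.11), against 12.3 ± 15.5 CPM in sgLuc (n = 6), a wide spread. Comparisons without sgLuc called more genes. In sgEzh2 + sgRunx1 against sgEzh2 + sgLuc 4 of 13 were lower (8.64% of all genes lower), which were Xrcc5, Lig4, Rag2 and Xrcc6 (FDR 0.010, 0.021, 0.047 and 0.049 by edgeR). In sgBcor + sgRunx1 against sgBcor + sgLuc 5 of 13 were lower (8.77% of all genes lower), which were Xrcc6, Hmgb1, Lig4, Rag1 and Rag2 (FDR 0.0053, 0.014, 0.029, 0.032 and 0.033 by edgeR). Of the last 5, Rag1 stood at 49.2, 0.153 and 314 CPM in sgBcor + sgLuc and at 0.0685, 0.454 and 0.477 CPM in sgBcor + sgRunx1, with overlap. Most of the 13 genes also serve DNA repair in other cells. In whole marrow their levels are not those of B cells alone.

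Genes of the pre-B receptor and its signalling fell in part with the Runx1 guide. Of 10 tested genes, 5 fell in sgEzh2 + sgRunx1, 4 in sgBcor + sgRunx1 and 4 in sgRunx1 + sgLuc against sgLuc (6.09, 9.69 and 5.36% of all genes lower), and none rose. Cd79a fell in all 3 (log2 -5.60 ± 0.88, FDR 0.00053, -5.11 ± 0.98, FDR 0.002, and -4.79 ± 0.96, FDR 0.0052). The adaptor Blnk also fell in all 3 (log2 -2.81, -2.68 and -3.44, FDR 0.016, 0.030 and 0.015), as did Cd79b, the partner of Cd79a (log2 -1.80, -2.31 and -2.16, FDR 0.017, 0.0075 and 0.017). In sgEzh2 + sgLuc 1 of 10 rose, where 6.29% of all genes were higher. It was Il7r, the receptor of the growth factor IL-7, at 132 ± 148 CPM against 18.3 ± 6.13 CPM in sgLuc (log2 2.66 ± 0.75, FDR 0.036). It stood at 47.4, 45.6 and 302.7 CPM in the 3 libraries. T cells also make Il7r, and the highest was the library rich in T cell markers. Cd79b had log2 1.08 ± 0.46 (FDR 0.14) there. In sgBcor + sgLuc none was called, with Blnk at log2 1.91 ± 0.66 (FDR 0.12) and the surrogate light chain gene Vpreb2 at 3.78 ± 1.41 (FDR 0.15).

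Of 13 regulators of the heavy chain locus, all tested, 5 fell in each of the 3 groups with the Runx1 guide against sgLuc (6.09, 9.69 and 5.36% of all genes lower in sgEzh2 + sgRunx1, sgBcor + sgRunx1 and sgRunx1 + sgLuc), and none rose. Pou2af1, a B cell coactivator of immunoglobulin promoters, fell to 0.771 ± 0.858 CPM in sgEzh2 + sgRunx1, 0.551 ± 0.614 CPM in sgBcor + sgRunx1 and 1.91 ± 2.14 CPM in sgRunx1 + sgLuc, against 70.6 ± 15.5 CPM in sgLuc (log2 -6.64, -6.90 and -5.23, FDR 0.00063, 0.0013 and 0.0078 by edgeR). Pou2f2, its DNA-binding partner, fell in sgBcor + sgRunx1 (log2 -1.27 ± 0.17, FDR 0.00016) and sgRunx1 + sgLuc (-0.96 ± 0.17, FDR 0.0017), but had log2 0.37 ± 0.14 (FDR 0.12) in sgEzh2 + sgRunx1. It was higher in sgEzh2 + sgRunx1 than in sgRunx1 + sgLuc, at 77.2 ± 15.3 CPM (SD, n = 4) against 28.8 ± 5.06 CPM (n = 3), by log2 1.33 ± 0.18 (FDR 0.0015 by edgeR). Ezh2 fell in both groups with its guide, by log2 -0.86 ± 0.15 (FDR 0.0013) in sgEzh2 + sgRunx1 and -0.67 ± 0.17 (FDR 0.021) in sgEzh2 + sgLuc, where it was the only regulator called. In groups without its guide Ezh2 had log2 -0.354 ± 0.167 (FDR 0.17) in sgBcor + sgRunx1, -0.016 in sgRunx1 + sgLuc and 0.355 in sgBcor + sgLuc. Foxo1, a factor of Rag gene expression, had log2 1.11 ± 0.36 (FDR 0.062) in sgEzh2 + sgLuc and 0.99 ± 0.36 (FDR 0.14) in sgBcor + sgLuc. Ebf1, a B lineage factor, had 2.53 ± 0.86 (FDR 0.11) in sgBcor + sgLuc, where 0 regulators were called. With the Runx1 guide Ebf1 was among the 5 that fell in each of the 3 groups, as were Pax5 and Tcf3. Its log2 fold changes there were -5.94, -6.11 and -4.05 (FDR 0.0027, 0.0056 and 0.036 by edgeR).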

How the data were processed

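Read counts per Ensembl gene were deposited as whole numbers without normalization, and FPKM (fragments per length and library size) was deposited beside them. The submitters' processing notes name fastp, HISAT2, HTSeq and the build mm9. Versions, options, the use of strand and the gene annotation were, in the sources used here, not given. The authors' FPKM equalled the count over library total and 1 length per row in 133 of 133 Ighv rows checked (relative tolerance 1e-06), so FPKM served only as an alternative share. GENCODE M21 gave positions and sequences on GRCm38, a newer build, and nothing was converted. Groups were read from sample titles. The members and gene lists were chosen with earlier results of these data known.

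CPM are counts over the library total. Testing used edgeR 4.0.16 in R 4.3.3 (filterByExpr by group with minimum count 10, TMM, robust quasi-likelihood fit of 6 group means over 22 libraries, 16 residual degrees of freedom), which kept 17659 genes, with Benjamini-Hochberg adjustment within a comparison and calls at FDR under 0.05. The scripts were tested on simulated data. SE is the absolute log2 fold change over the square root of F. Alternatives used DESeq2 1.42.0. Totals, shares, evenness and segment numbers are described per library. Named segments were the top one per library, the 10 highest by mean CPM in sgLuc and in the edited libraries, the 3 of lowest FDR per comparison and direction, and any called higher against sgLuc (there was none). Of the lists, the 2 genes of lowest p are named. Totals of 30023722 to 57175449 counts set the precision; 3 counts served as the floor, and intervals are 95% Clopper-Pearson. Replicates of a group differed beyond sampling noise in all 33 pairs. The labels do not state that each library is a separate mouse, so p-values measure the spread between these samples. The summed mature B cell markers are not reported here.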

Additional observations from a re-analysis of the deposited data

Results flagged for a closer look

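In sgLuc (6 libraries) and sgEzh2 + sgRunx1 (4), 53 values were checked for a single library far from the rest of its group. By Dixon's 95% limit, 19 had such a library. The limit's rate of about 1 in 20 does not apply here. Segments were named partly for topping a library or a group mean, and many had few or no reads in sgEzh2 + sgRunx1. Most of the 19 were levels of single segments. In sgLuc these were Ighv1-15 at 530.7 CPM in replicate 2, Ighv1-52 at 111.2 CPM in replicate 1 and Ighv1-9 at 692.0 CPM in replicate 5. Replicate 3, the library with the highest Ighv total, stood apart for Ighv1-50 (1381 CPM), Ighv6-3 (426.6 CPM), Ighv9-3 (291.0 CPM), Ighv3-6 (288.6 CPM), Ighv8-8 (258.5 CPM) and Ighv11-2 (164.1 CPM).

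In sgEzh2 + sgRunx1, replicate 3 stood apart for Ighv7-3 (15.84 CPM), Ighv1-26 (3.78 CPM), Ighv6-3 (0.8543 CPM), Ighv1-15 (0.5437 CPM) and Ighv9-3 (0.2589 CPM), and for 9.519 Ighv reads per 100 constant-gene reads. Replicate 4 stood apart for Ighv1-55 (0.3529 CPM) and for Ighv1-80 (0.01857 CPM, a single read). Replicate 2, with 223 Ighv reads, stood apart for 14.0 segments with reads and a D-proximal share of 38.12%.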

How the results depend on the processing

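Of the counts of called segments, 98 of 116 values under another setting and 137 of 158 without 1 library stayed within 1.5 times. DESeq2 called more segments lower, with 10 in sgEzh2 + sgLuc, 29 in sgBcor + sgLuc, 11 in sgEzh2 + sgRunx1 against sgRunx1 + sgLuc, 13 (and 1 higher) in sgBcor + sgRunx1 against sgRunx1 + sgLuc, 59 in sgBcor + sgRunx1 against sgBcor + sgLuc, and 3 (with 5 higher) between the doubles. Without a filter the counts were 0 in sgEzh2 + sgLuc, 3 in sgBcor + sgLuc and 18 in sgBcor + sgRunx1 against sgBcor + sgLuc, and with only the groups compared in the fit they were 0, 4 and 16. Without sgEzh2 + sgLuc replicate 3, 2 segments were lower in sgEzh2 + sgRunx1 and 1 in sgBcor + sgRunx1, both against sgRunx1 + sgLuc. Same-numbered samples did not pair (0 of 46 correlations over 0.1, from -0.135 to 0.096). With the replicate number as a block, 1 segment was lower in sgEzh2 + sgLuc and 21 in sgBcor + sgRunx1 against sgBcor + sgLuc. Leaving out 1 library gave 29 to 59 lower in sgRunx1 + sgLuc, 0 to 7 lower and 0 to 2 higher in sgEzh2 + sgLuc, 0 to 11 lower in sgBcor + sgLuc, 0 to 1 lower in sgBcor + sgRunx1 against sgRunx1 + sgLuc and 8 to 39 lower against sgBcor + sgLuc. Single segments kept their call in 108 of 118 values under another setting.

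Values per library, as group minus sgLuc, moved as follows. Without pseudogenes, sgBcor + sgRunx1 had a log2 total of -7.45 and a top share of 0.441 points. In equal numbers of reads, sgBcor + sgLuc had 7.35 more segments (223 reads) or 8.94 more (1000 reads, chosen after seeing the data), where its unadjusted number was lower by depth. Evenness over all rows was -0.178 in sgEzh2 + sgRunx1, -0.101 in sgBcor + sgRunx1 and -0.063 in sgRunx1 + sgLuc, and the inverse Simpson number differed by -5.82, -2.81 and -1.34. Without Ighv1-41 (chosen after seeing the data), evenness was -0.0046 in sgEzh2 + sgRunx1 and 0.0912 in sgBcor + sgRunx1. The J558 share was 9.44 points without the top segment and 12.03 with each segment counted once in sgEzh2 + sgRunx1, 9.15 and 5.19 in sgRunx1 + sgLuc, and -0.136 with each counted once in sgBcor + sgLuc. The D-proximal share without the top segment was -7.44 points in sgEzh2 + sgRunx1 and -0.586 in sgEzh2 + sgLuc. Leaving out 1 library gave log2 totals of -7.55 to -6.79 in sgBcor + sgRunx1 and -1.87 to -1.11 in sgEzh2 + sgLuc, top shares of -2.70 to 0.767 points in sgBcor + sgRunx1 and -2.98 to 9.13 in sgRunx1 + sgLuc, evenness (sgEzh2 + sgRunx1) of -0.0265 to 0.0697 and (sgBcor + sgRunx1) of 0.0658 to 0.0905, and D-proximal shares of -4.91 to 7.80, -4.38 to 3.69 and -4.44 to 1.28 points in sgEzh2 + sgRunx1, sgBcor + sgRunx1 and sgRunx1 + sgLuc. Apart from the settings' own construction the cause was not tested. Totals of 223 to 2539 Ighv reads limit every share in the groups with the Runx1 guide, and no sgBcor + sgRunx1 library reached 1000.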
